A study of Mus musculus with 6 samples.

Results

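The transcripts described here are those of Trp53, the gene of the transcription factor p53, and of 32 genes that p53 is known to induce or that hold p53 in check. The 33 genes were taken as a list of symbols of known p53 pathway genes and matched to Ensembl identifiers, and all 33 were found among the 37991 gene identifiers of the count table. They were sorted by known role into p53 and its feedback (5 genes), cell-cycle arrest (5), apoptosis (14), metabolism and stress (5) and DNA repair (4). The list and its classes were chosen with earlier results of these data known. Their shares beside those of all tested genes are therefore a description and not an independent test. The count table comes from mouse primordial germ cell-like cells (PGCLCs), a culture model of the earliest germ cells that is derived from embryonic stem cells through epiblast-like cells. The stem cells were of C57BL/6 background and carried floxed Ezh2 alleles and CreERT2, a Cre recombinase that 4-hydroxytamoxifen switches on. The 3 Ctrl libraries (genotype label Ezh2f/f, CreERT2) came from aggregates given ethanol, and the 3 Ezh2 KO libraries (genotype label Ezh2-/-, CreERT2) from aggregates given 4-hydroxytamoxifen in ethanol. All were taken on day 4 of PGCLC induction, after dissociation and sorting. Since only the Ezh2 KO aggregates received the drug, loss of Ezh2, activity of Cre and the drug itself cannot be told apart. Whether the replicates of a group were induced separately is not stated in the labels. The p-values therefore reflect only how much these 6 libraries vary, and some of that may be technical.

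p53 is kept scarce by Mdm2, an ubiquitin ligase that p53 itself induces, and it accumulates when DNA damage or other stress blocks that loop. It then binds a response element made of a pair of decamers and raises genes that halt the cell cycle, repair DNA, adjust metabolism or trigger death through mitochondria or death receptors. Control of p53 is exerted largely on the protein, which RNA-seq does not measure. In early germ cells and their pluripotent precursors the pathway is known for the removal of damaged cells.

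RefSeq promoter windows of build GRCm38.p6, which run from 250 bases before to 50 bases after a start site, were given for 25 of the 33 genes. The p53 decamer consensus reads the same on both strands, has the core CWWG, where W is A or T, and was searched without mismatch. It was present in at least 1 window of 12 of the 25 genes (48.0%), against 2582 of all 27025 genes with a window (9.55%). A pair of decamers with at most 13 bases between them was present in Cdkn1a alone among the 25 (4.00%), against 20 of 27025 genes (0.0740%). The stretches below show that motif upstream of the start site in the genes of feedback, arrest and apoptosis whose values are given library by library. Capitals mark the exact decamers, and each stretch is written from 5′ to 3′ on the strand of the gene.
Trp53, chr11:69580269-69580308, plus strand: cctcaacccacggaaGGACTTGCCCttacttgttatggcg
Mdm2, chr10:117710920-117710959, minus strand: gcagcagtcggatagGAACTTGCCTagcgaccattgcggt
Rps27l, chr9:66946291-66946330, plus strand: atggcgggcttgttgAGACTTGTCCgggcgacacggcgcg
Cdkn1a, chr17:29090891-29090952, plus strand: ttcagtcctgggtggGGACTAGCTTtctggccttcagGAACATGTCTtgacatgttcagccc
Ccng1, chr11:40755447-40755486, minus strand: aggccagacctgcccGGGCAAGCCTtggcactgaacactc
Gadd45a, chr6:67037423-67037462, minus strand: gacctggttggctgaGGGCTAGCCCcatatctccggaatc
Bax, chr7:45467075-45467114, minus strand: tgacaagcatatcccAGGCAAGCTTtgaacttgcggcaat
Rps27l held a further decamer nearer the edge of its window. The match is a description of letters and not a binding site, and many known p53 elements lie outside such windows. The genes were listed as known p53 pathway genes, so their higher share with the decamer is a description and not an independent test.

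Total counts per library ran from 27072150 to 49382146. Ezh2, the targeted gene, stood at 91.8, 78.1 and 95.3 CPM (counts scaled by TMM to a common library size) in Ctrl replicates 1, 2 and 3, the order used throughout, and at 40.8, 67.1 and 70.0 CPM in the Ezh2 KO replicates. The knockout libraries were each below the lowest Ctrl library and kept 67.1% of the Ctrl mean (log2 fold change -0.58 ± 0.23 SE, edgeR unadjusted p = 0.0361, adjusted p = 0.976). How much of the remaining signal comes from exons outside the deleted part and how much from incomplete deletion was not tested. On the first principal component, with 55.5% of the variance, Ctrl replicate 1 (-61.4) and Ezh2 KO replicate 2 (78.0) lay at the ends and the others between -35.5 and 13.3. Deviations from the group means were correlated between same-numbered libraries only. Over all tested genes the correlations were 0.583, 0.368 and 0.192 for replicates 1, 2 and 3, and over the 33 genes 0.672, 0.394 and -0.167. Without values for differently numbered libraries they cannot show pairing. A fit with the replicate number as a block is given beside the counts by p of the 33 genes and beside some of the single genes. The germ cell and pluripotency markers were present in every library. They ran from Nanog at 434 to 563 CPM down to Prdm1 at 3.08 to 7.24 CPM and Itgb3 at 1.85 to 5.03 CPM. Dppa3 stood at 135 to 255 CPM. In bulk RNA, fewer cells of a type and less RNA per cell cannot be told apart.

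Among the 33 transcripts, the arrest genes Plk2, Ccng1 and Btg2 had every Ezh2 KO library above all Ctrl libraries. So did Perp, Pmaip1 and Eda2r of the 14 apoptosis genes, and the Ezh2 KO means of all these were 130% to 168% of Ctrl. Trp53, Mdm2, Cdkn1a, the repair genes and the other apoptosis genes except Bax overlapped between groups. The means of Gadd45a, Ddit4, Sesn2 and Bax, among others, were lower in Ezh2 KO. None of these differences passed the test after adjustment. All 33 genes passed the filter on low counts, and edgeR's quasi-likelihood test called 0 of them after adjustment over all 16420 tested genes (background 0%, smallest adjusted p 0.976). At an unadjusted p under 0.05 edgeR placed 4 of the 33 (12.1%), against 2.80% of all tested genes; all 4 were higher in Ezh2 KO (background 1.55%) and 0 lower (background 1.25%). Without Ezh2 KO replicate 1 the count was 3 (9.09%) against 8.67% of all tested genes, so the share of the 33 was then near the background. With the replicate block the count was 6 (18.2%), against 9.10% of all tested genes, with 5 higher (background 5.98%) and 1 lower (background 3.12%), and again 0 passed after adjustment (smallest adjusted p 0.389). DESeq2 called 0 of the 33 as well, with the block and without it, against 0.269% and 0.0740% of the genes for which it gave an adjusted p.

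Counted library by library, 7 of the 33 transcripts (21.2%) had no overlap between the Ezh2 KO and the Ctrl libraries, against 8.09% of all tested genes. Higher in Ezh2 KO were 6 (Ccng1, Btg2, Plk2, Perp, Pmaip1 and Eda2r), where the background was 4.07%, and lower was 1 (Bax), where it was 4.03%. With the size factors of DESeq2 in place of TMM, Btg2 and Bax no longer stood apart and 5 remained (background 8.05%). Without Ezh2 KO replicate 1 the count was 8 (24.2%) against a background of 26.5%, so there was then no excess, and without any other single library it was 24.2% to 30.3% against 15.2% to 17.7%. With both ends of the first component removed the count was 16, but the background was then 31.3%. A higher level in each of the 3 same-numbered pairs was seen in 9 genes (27.3%, background 17.9%), and a lower level in 2 (6.06%, background 14.7%). The log2 fold change was positive in 22 of 33 (66.7%, background 51.3%), with a median of 0.08 against 0.01 over all tested genes.

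**Figure D1:**
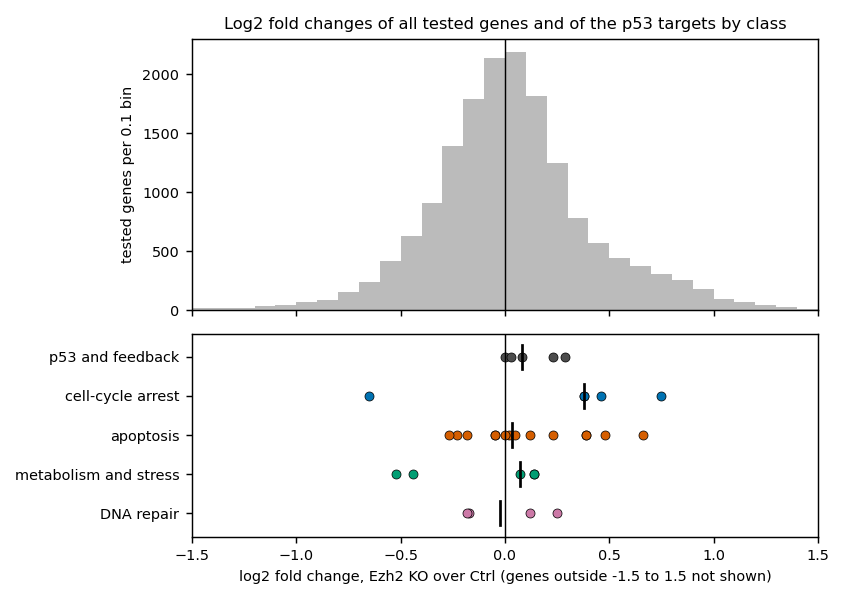
Upper panel, number of tested genes by log2 fold change of Ezh2 KO over Ctrl in bins of 0.1; lower panel, each p53 pathway gene as a point by class, with the class median as a bar. The median of the arrest genes lies at 0.38 and those of the other classes between -0.03 and 0.08.

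Summed over the 33 genes, the Ctrl libraries reached 3256, 3248 and 3275 CPM and the Ezh2 KO libraries 3626, 3753 and 3503 CPM. The sums of the groups did not overlap, and the Ezh2 KO mean was 111% of the Ctrl mean. A sum is led by its most abundant members, and without Pmaip1 it was 106%. By class the sum in Ezh2 KO was 128% of Ctrl for arrest, 112% for apoptosis, 111% for feedback, 98.7% for repair and 87.6% for metabolism. Single genes led the apoptosis and feedback values, as their group means show (Ctrl first). The apoptosis mean went from 1480 to 1653 CPM, and Pmaip1 alone gained more, from 491 to 682 CPM. Without Pmaip1 the mean apoptosis sum was thus not higher in Ezh2 KO. Most of the feedback gain, from 1036 to 1152 CPM, lay in Rps27l, which went from 408 to 498 CPM. The sums of arrest genes ran from 345 to 446 CPM in Ctrl and from 473 to 564 CPM in Ezh2 KO, without overlap, while those of metabolism genes overlapped widely (205 to 367 and 163 to 329 CPM).

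**Figure D2:**
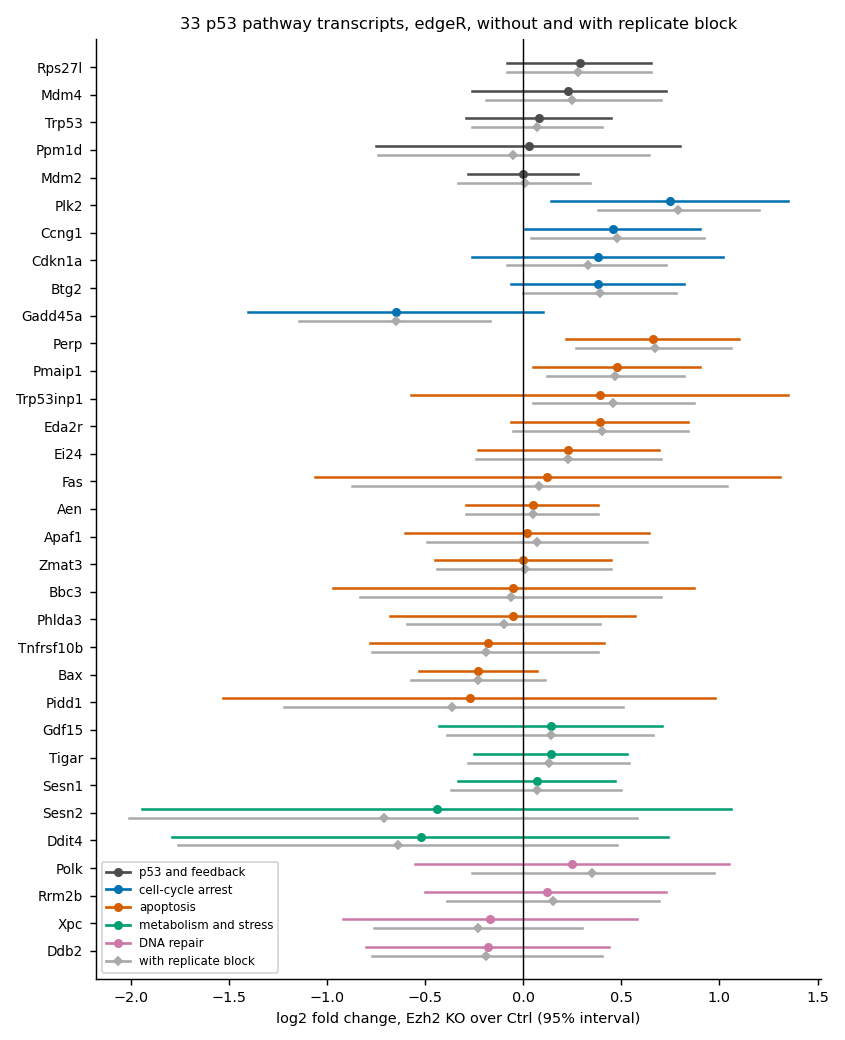
Log2 fold change of Ezh2 KO over Ctrl for each of the 33 genes, with 95% intervals, from edgeR without the replicate block (coloured circles) and with it (grey diamonds). Without the block the intervals of Plk2, Ccng1, Perp and Pmaip1 lie above 0, and those of the other 29 genes include 0.

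The 5 transcripts of p53 and its feedback loop overlapped between groups, and their log2 fold changes lay between 0.00 and 0.29. Trp53 stood at 392, 332 and 332 CPM in the Ctrl libraries and at 445, 325 and 345 CPM in the Ezh2 KO libraries. The ranges overlapped, with replicate 1 highest in each group (log2 fold change 0.08, 95% interval -0.29 to 0.45). Without Ezh2 KO replicate 1 the value was -0.07, and with both ends of the first component removed it was 0.25. Mdm2, which ubiquitinates p53 and is among its most direct targets, stood at 227, 235 and 256 CPM in Ctrl and at 239.5, 239.7 and 239.8 CPM in Ezh2 KO. The Ezh2 KO libraries lay inside the Ctrl range and closer together than the Ctrl ones, and the log2 fold change was 0.00 with a 95% interval of -0.28 to 0.28. The coefficient of variation of Mdm2 over the 6 libraries, 4.02%, was the smallest of the 33 genes.

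The other feedback genes also overlapped between groups. Mdm4, a relative of Mdm2 that masks the activation domain of p53, stood at 22.9, 35.1 and 30.0 CPM in the Ctrl libraries and at 32.9, 38.1 and 32.5 CPM in the Ezh2 KO libraries, a log2 fold change of 0.23 ± 0.22 SE. It was higher in Ezh2 KO in each same-numbered pair, but Ctrl replicate 2 exceeded 2 of the Ezh2 KO libraries. Rps27l, a ribosomal protein paralog that binds Mdm2, stood at 371, 397 and 455 CPM in Ctrl and at 448, 594 and 453 CPM in Ezh2 KO (0.29 ± 0.16 SE, edgeR unadjusted p = 0.106). Ezh2 KO replicate 2 was its highest library. Sharing of reads with its paralog Rps27 was not tested, so its counts are less certain. Ppm1d, the phosphatase Wip1 that switches p53 signalling off, was scarce, with means of 7.40 ± 0.799 CPM for Ctrl and 7.54 ± 2.87 CPM for Ezh2 KO (SD, n = 3), with 4.23 CPM in Ezh2 KO replicate 1 and over 9 CPM in the other two.

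Of the 5 arrest genes, 4 had a positive log2 fold change and the class had the highest median, 0.38, of the 5 classes. Cdkn1a, which encodes the CDK inhibitor p21 and is the classic arrest target of p53, did not stand apart. It was at 72.9, 97 and 69.7 CPM in Ctrl and at 73.2, 149 and 88.8 CPM in the Ezh2 KO libraries, a log2 fold change of 0.38 ± 0.28 SE (edgeR unadjusted p = 0.212, adjusted p = 0.976). The groups overlapped, and Ezh2 KO replicate 2 was the highest library. Without it the log2 fold change of Cdkn1a was 0.03, and with both ends of the first component removed it was -0.04.

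Plk2, a polo-like kinase induced after damage, had the largest positive log2 fold change of the 33 genes. It stood at 34.3, 55.7 and 67.9 CPM in Ctrl and at 73.2, 92.2 and 99.2 CPM in Ezh2 KO. Every Ezh2 KO library was above every Ctrl library, with the lowest value of each group in replicate 1. The log2 fold change was 0.75 ± 0.26 SE (edgeR unadjusted p = 0.0217, adjusted p = 0.976) and 0.79 ± 0.18 SE with the replicate block (unadjusted p = 0.00180, adjusted p = 0.389). The adjusted p of Plk2 was 0.153 in DESeq2 with the block, the lowest of any of the 33 genes over the alternatives. An exact two-sided permutation test over the 6 libraries gave p = 0.1 for Plk2, as for each of the 7 genes that stood apart, which is the smallest p that 3 against 3 allow. Groups without overlap always give that value, so it adds nothing to the lack of overlap.

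Ccng1, cyclin G1, which acts back on Mdm2 through protein phosphatase 2A, stood at 118, 169.9 and 189 CPM in Ctrl and at 227, 234 and 193 CPM in Ezh2 KO. The groups parted narrowly, between Ctrl replicate 3 and Ezh2 KO replicate 3 (0.46 ± 0.19 SE, edgeR unadjusted p = 0.0470, adjusted p = 0.976). Btg2, an antiproliferative factor that recruits the deadenylase of messenger RNAs, stood at 43.9, 49.6 and 62.4 CPM in Ctrl and at 63.1, 63.8 and 75.9 CPM in Ezh2 KO. It too was higher in every pair but parted by less than 1 CPM (0.38 ± 0.19 SE, edgeR unadjusted p = 0.0811).

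Gadd45a, a growth arrest and stress sensor that acts on p38 and JNK signalling, lay the other way. It stood at 75.8, 38.6 and 57.0 CPM in Ctrl and at 35.9, 24.2 and 49.3 CPM in Ezh2 KO. The groups overlapped, yet each Ezh2 KO library was below the Ctrl library of the same number (-0.65 ± 0.32 SE, edgeR unadjusted p = 0.0804). With the replicate block the SE was 0.22 and the unadjusted p 0.0131 (adjusted p = 0.466). With both ends of the first component removed the log2 fold change of Gadd45a was -0.16. A further gene, E230016M11Rik, lies on the opposite strand over 19.1% of its exon bases in GENCODE M21, and without a stated strand setting reads there cannot be told apart.

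**Figure D3:**
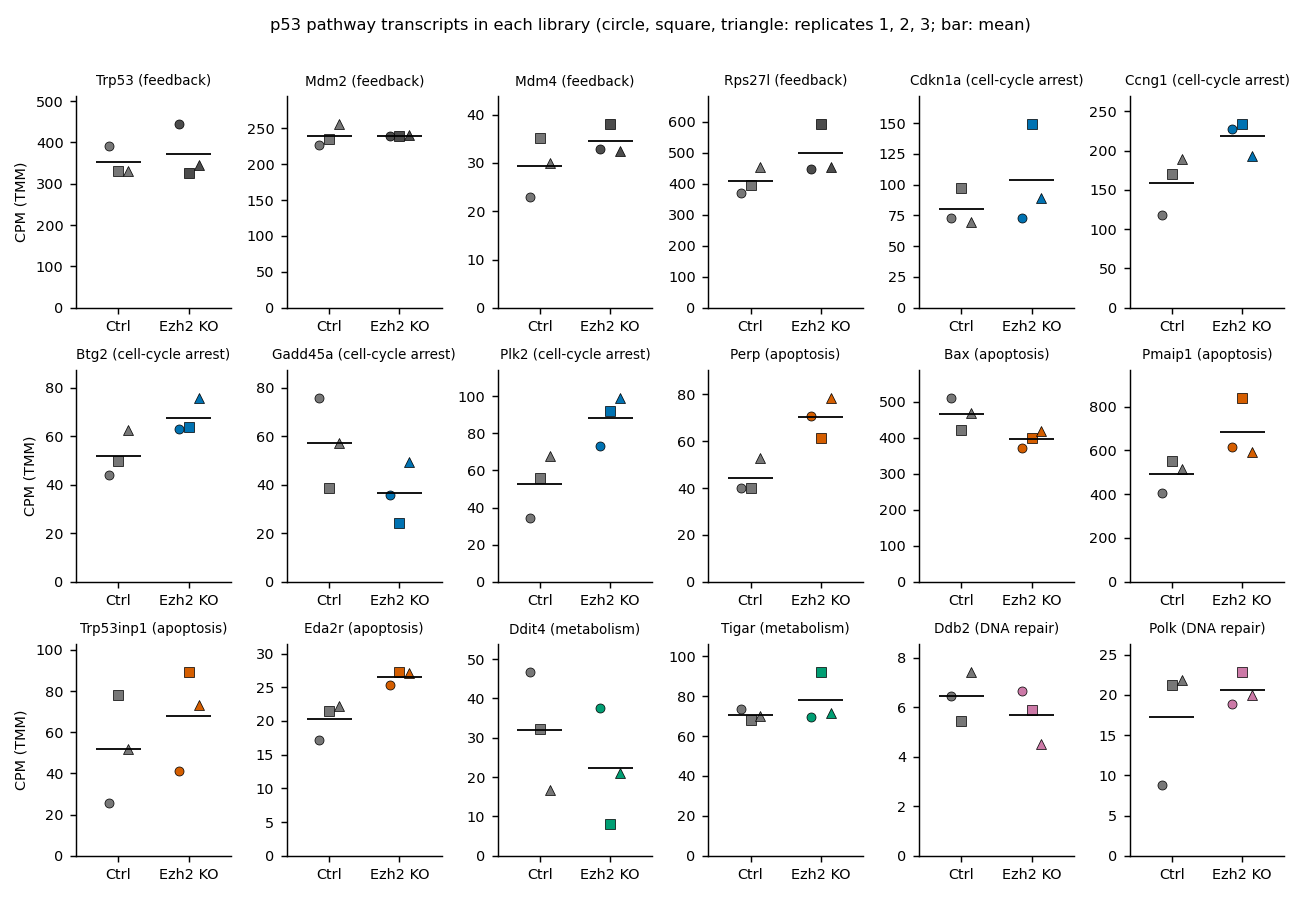
CPM after TMM scaling of 18 p53 pathway transcripts in the 3 Ctrl and 3 Ezh2 KO libraries; circle, square and triangle are replicates 1, 2 and 3, the bar is the mean, and each vertical axis starts at 0. Plk2, Perp, Ccng1, Btg2, Pmaip1 and Eda2r have all Ezh2 KO points above all Ctrl points, Bax the reverse by less than 1 CPM, and the other 11 overlap.

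The 14 apoptosis genes were split: 8 had a positive and 6 a negative log2 fold change, and the median was 0.03. Perp, a membrane protein of desmosomes and an apoptosis effector of p53, had the lowest unadjusted p of the 33 genes. It was at 40.2, 40.1 and 52.9 CPM in Ctrl and at 70.6, 61.4 and 78.6 CPM in Ezh2 KO. The groups did not overlap, and each same-numbered pair differed by 0.57 to 0.81 on the log2 scale. The log2 fold change was 0.66 ± 0.19 SE (edgeR unadjusted p = 0.00805, adjusted p = 0.976), and 0.69 with both ends of the first component removed.

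Pmaip1, which encodes Noxa, a BH3-only protein that neutralises Mcl1, was the most abundant of the 33 transcripts by CPM. It stood at 406, 551 and 514 CPM in Ctrl and at 615, 840.3 and 592 CPM in Ezh2 KO. The groups did not overlap, with replicate 2 highest in each (0.48 ± 0.18 SE, edgeR unadjusted p = 0.0326, adjusted p = 0.976). With both ends of the first component removed the log2 fold change of Pmaip1 was 0.18. Eda2r, an X-linked receptor of the TNF receptor family that binds ectodysplasin A2, stood at 17.2, 21.4 and 22.3 CPM in Ctrl and at 25.3, 27.3 and 27.2 CPM in Ezh2 KO. It parted without overlap as well (0.39 ± 0.20 SE, edgeR unadjusted p = 0.0834).

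Bax, the pore-forming protein of the outer mitochondrial membrane, was the 1 gene that stood apart with a lower level in Ezh2 KO. It was at 511, 420.9 and 469.5 CPM in Ctrl and at 373, 400.0 and 420.5 CPM in Ezh2 KO. The gap was less than 1 CPM (-0.23 ± 0.13 SE, edgeR unadjusted p = 0.114), and with the replicate block and a GC offset the log2 fold change was 0.06. Bbc3, which encodes Puma, the other BH3-only target, was scarce at 4.84 ± 1.89 CPM in Ctrl and 4.68 ± 1.85 CPM in the knockout (SD, n = 3), and its log2 fold change of -0.05 had a 95% interval of -0.97 to 0.87.

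Trp53inp1, a nuclear body protein that enhances p53 activity and autophagy, varied more between replicates than between groups. It stood at 25.7, 78.1 and 51.8 CPM in Ctrl and at 41.3, 89.4 and 73.3 CPM in Ezh2 KO. In each group replicate 1 was lowest and replicate 2 highest, and each Ezh2 KO library exceeded its Ctrl partner. The log2 fold change was 0.39 ± 0.42 SE without the block and 0.46 ± 0.18 SE with it (edgeR unadjusted p = 0.0330, adjusted p = 0.505). With both ends of the first component removed it was -0.17.

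Death receptor genes were low. Fas was under 1 CPM in every library (0.247 to 0.667 CPM), and Tnfrsf10b, the mouse receptor for TRAIL, averaged 17.7 ± 3.10 CPM in Ctrl against 15.5 ± 3.53 CPM in the knockout (SD, n = 3). Apaf1, the scaffold of the apoptosome, had a log2 fold change of 0.02 and Aen, an apoptosis-enhancing nuclease, one of 0.05. Zmat3, an RNA-binding splicing regulator, had one of 0.00, Phlda3, an inhibitor of Akt, one of -0.05, and Ei24, a protein of the endoplasmic reticulum, one of 0.23. Pidd1, the scaffold that activates caspase 2, spread from 7.07 to 32.6 CPM and had a log2 fold change of -0.27 with a 95% interval of -1.53 to 0.98. All of these overlapped between groups.

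The metabolism class split into genes that were steady in all libraries and genes that varied several times between replicates. Sesn1, a sestrin that restrains mTORC1, ran from 35.8 to 43.6 CPM over the 6 libraries, and Gdf15, a secreted stress cytokine, from 5.13 to 6.57 CPM. Tigar, which lowers glycolytic flux, stood at 73.6, 68.2 and 69.98 CPM in Ctrl and at 69.8, 92.2 and 71.6 CPM in Ezh2 KO (0.14 ± 0.17 SE). Its groups overlapped, and only Ezh2 KO replicate 2 stood out as high. The log2 fold changes of these 3 genes lay between 0.07 and 0.14. Sesn2, a sestrin that also answers to amino acid shortage, stood at 206, 109 and 75.4 CPM in Ctrl and at 171, 21.7 and 94.0 CPM in Ezh2 KO. Ddit4, the mTORC1 inhibitor Redd1, stood at 46.8, 32.2 and 16.8 CPM in Ctrl and at 37.5, 8.07 and 21 CPM in Ezh2 KO. Both were highest in Ctrl replicate 1 and lowest in Ezh2 KO replicate 2, which also lay farthest apart on the first component. The negative log2 fold changes (-0.44 ± 0.65 SE for Sesn2 and -0.52 ± 0.55 SE for Ddit4) rested on those 2 libraries, since without them the values were 0.53 and 0.25. With the replicate block they were -0.71 ± 0.52 SE and -0.64 ± 0.45 SE. Pidd1 and Xpc were lowest in Ezh2 KO replicate 2 as well, and the part of library composition in these values was not tested.

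**Figure D4:**
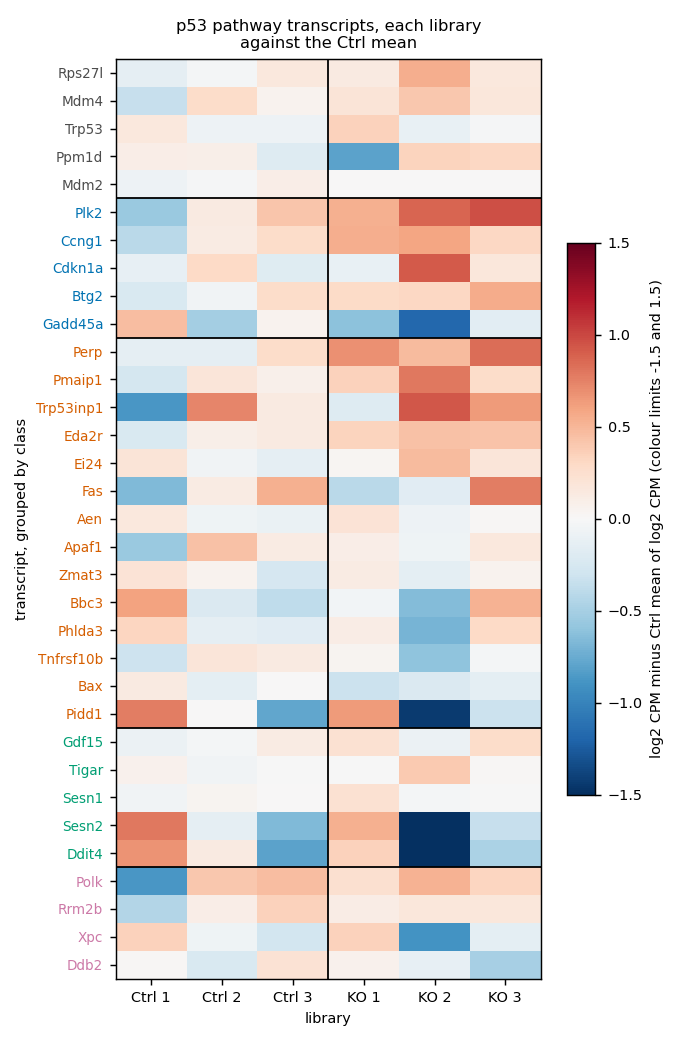
Log2 CPM of the 33 transcripts in each library minus the mean log2 CPM of the 3 Ctrl libraries, by class; red is higher and blue is lower. Sesn2 and Ddit4 are darkest blue in Ezh2 KO replicate 2, while Plk2 and Perp are red in all 3 Ezh2 KO libraries.

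All 4 DNA repair targets overlapped between groups, and their median log2 fold change was -0.03. Polk, a translesion polymerase, stood at 8.76, 21.2 and 21.9 CPM in Ctrl and at 18.8, 22.9 and 20.0 CPM in Ezh2 KO. Only Ctrl replicate 1 was low (0.25 ± 0.35 SE), and without that library the log2 fold change of Polk was -0.07. Ddb2, which recognises ultraviolet lesions, stood at 6.45, 5.43 and 7.43 CPM in Ctrl and at 6.66, 5.87 and 4.52 CPM in Ezh2 KO (-0.18 ± 0.27 SE). The groups overlapped, and in GENCODE M21 the gene Acp2 covers 23.8% of the exon bases of Ddb2 on the opposite strand. Xpc, the partner sensor of bulky lesions, had a log2 fold change of -0.17 (95% interval -0.92 to 0.58), and Rrm2b, the p53-induced subunit of ribonucleotide reductase, one of 0.12 (-0.50 to 0.73).

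Per kilobase of exon, the members spanned a wide range of abundance, with a median of 9.55 CPM per kilobase over the 6 libraries. Rps27l was highest at 555 CPM per kilobase, followed by Bax at 274, Pmaip1 at 215 and Trp53 at 89.5 CPM per kilobase. The lowest were Fas at 0.206 and Rrm2b at 0.904 CPM per kilobase. Cdkn1a, at 25.8 CPM per kilobase, lay below Mdm2 at 47.1 and Ccng1 at 53.7 CPM per kilobase. Among the apoptosis triggers, Pmaip1 was thus far more abundant per length than Bbc3, at 2.24 CPM per kilobase.

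Transcript GC content is given beside the direction of the genes, and its part in the values was not tested beyond the GC offset. Its median was 43.3% (range 38.8% to 54.4%) for the 9 higher genes, 49.6% for the 22 of mixed sign and 56.7% for the 2 lower ones, Gadd45a at 49.8% and Bax at 63.5%. With the replicate block and the GC offset, Plk2 (0.75), Perp (0.63), Btg2 (0.38), Pmaip1 (0.37) and Ccng1 (0.37) had a positive log2 fold change, and 0 of the 33 passed after adjustment (smallest adjusted p 0.308). Among the 25 genes with a promoter window, those with and without the decamer had similar medians. The 12 genes that held it had a median log2 fold change of 0.08, with Ccng1 and Bax standing apart. The 13 that did not had 0.12, with Btg2, Plk2 and Eda2r standing apart. Perp and Pmaip1, which also stood apart, had no window and are not in this comparison.

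Genes of the pathway outside the 33 passed no test either. Of 20 genes upstream of p53, such as its kinases and acetyltransferases, 19 were tested, 0 passed edgeR after adjustment or had an unadjusted p under 0.05, and the median log2 fold change was 0.13. The lowest unadjusted p values were those of the kinase Hipk2 (0.44), the acetyltransferase Kat5 (-0.36) and the ubiquitin ligase Rchy1 (0.23), with log2 fold changes in brackets. Of 36 further p53 targets, all tested, 0 passed and 23 lay above 0 on the log2 scale (median 0.11, background 51.3% above 0). In this list 2 of 36 had an unadjusted p under 0.05 in edgeR, both higher, where the background was 1.55%. Ephx1, microsomal epoxide hydrolase, stood at 10.2, 9.54 and 10.6 CPM in Ctrl and at 15.7, 19.7 and 15.6 CPM in Ezh2 KO (0.75 ± 0.22 SE, edgeR unadjusted p = 0.00815, adjusted p = 0.976). Sfn, the checkpoint protein 14-3-3 sigma, stood at 232, 219 and 230.4 CPM in Ctrl and at 257, 286 and 295 CPM in Ezh2 KO (0.30 ± 0.13 SE, edgeR unadjusted p = 0.0435). The groups of both genes stood apart. Of the 36, 4 stood apart with a higher level in Ezh2 KO (background 4.07%). Sesn3 was the 1 that stood apart with a lower level (background 4.03%). Next by p was Sesn3, a sestrin, with a log2 fold change of -0.46 (edgeR unadjusted p = 0.112).

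Cell-cycle genes that p21 is known to repress were mostly above 0 on the log2 scale, 15 of 20 (background 51.3%), and their median was 0.08. In edgeR 0 of them had an unadjusted p under 0.05 or passed after adjustment. The lowest p values were those of Cdc20, the activator of the anaphase-promoting complex (0.26), topoisomerase Top2a (0.28) and Birc5, survivin (0.24), with log2 fold changes in brackets. Ribosomal protein genes, as a control, had a median of 0.10 over 8 genes, with 7 above 0. Among the 33 p53 pathway genes the median was 0.08, with 22 above 0. The ribosomal sum in Ezh2 KO was 107.5% of Ctrl, and that of the 33 genes 111%. Without Pmaip1, the sum of the p53 pathway genes was a lower percentage of Ctrl than the ribosomal sum. The ribosomal sums overlapped between groups, and those of the 33 genes did not. Markers of other cell types were scarce beside the p53 targets. The sums of 9 neuroectoderm markers ran from 4.42 to 6.56 CPM in Ctrl and from 2.66 to 3.80 CPM in Ezh2 KO, those of 10 fibroblast markers from 5.41 to 9.83 and from 2.78 to 6.47 CPM, and those of 10 endoderm markers from 8.03 to 10.9 and from 4.94 to 9.73 CPM. Under 1 CPM in every library were 7 markers of each of these lists, and Cer1 had no count in any library. Those of 10 mesoderm markers, with Foxf1 at 0 counts, ran from 18.4 to 23.4 and from 18.3 to 25.4 CPM, and those of 10 trophoblast markers from 53.2 to 76.8 and from 58.6 to 81.9 CPM. The sum of germ cell and pluripotency markers ran from 1590 to 1778 CPM in Ctrl and from 1258 to 1702 CPM in Ezh2 KO. Of these 10 markers, 7 had a negative log2 fold change and 3 a positive one. In all same-numbered pairs 5 were lower in Ezh2 KO (background 14.7%) and 0 higher (background 17.9%). In edgeR 0 of the 10 had an unadjusted p under 0.05. The part of cell composition in the values of the p53 targets was not tested. Mitochondrially encoded genes held 1.79% to 3.02% of counts in Ctrl and 1.90% to 3.37% in Ezh2 KO.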

How the data were processed

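The authors deposited 1 table of read counts per Ensembl gene for 6 libraries, not normalized. Per the submitters' processing notes, the tools were CASAVA (1.8.4), Trimmomatic (0.33), TopHat2 (2.0.11) and featureCounts, and the builds listed were mm9 and NCBIM37; the strand setting is not given in the sources used here. Symbols, exon lengths and GC content came from GENCODE M21 by gene ID (32919 of 37991 IDs had a symbol), a later build, so none of its coordinates are printed.

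Genes kept by filterByExpr (minimum count 10) numbered 16420. After TMM scaling, edgeR 4.0.16 (R 4.3.3) gave robust two-sided quasi-likelihood tests with no term but group; p was adjusted by Benjamini-Hochberg over all tested genes, with a threshold of 0.05. Alternatives were DESeq2 1.42.0, its size factors, no filter, a higher minimum (mean of 20 counts, and 3 libraries at 1 CPM or more), the replicate block, a GC offset with the block, and each library left out; removal of 2 libraries was added after seeing the data. Deviations from group means correlated between same-numbered libraries (0.583, 0.368 and 0.192 over 16420 genes). The same correlation was not computed for differently numbered libraries, so these values cannot show pairing, and the block is an assumption. The test was checked on simulated data of 16420 genes without an effect of replicate number. There edgeR recovered 24 of 100 genes altered by log2 1 and 92 of 100 altered by log2 2, with 9 false calls. DESeq2 recovered 45 and 100, with 49 false calls. With the block DESeq2 recovered 51 and 99, with 58 false calls.

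The members, classes and lists were chosen with earlier results of these data known. Given library by library were Trp53, Mdm2, Cdkn1a, members whose groups do not overlap or whose unadjusted p is under 0.05 with or without the block, and otherwise the 2 of smallest p in a class; from each further list, up to 3 of smallest p. Sesn2 was added after its values were seen.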

Additional observations from a re-analysis of the deposited data

How the results depend on the processing

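Over all alternatives 0 of the 33 genes passed after adjustment (lowest adjusted p 0.153, DESeq2 with the block), and 2 to 6 had an unadjusted p under 0.05 (6.06% to 18.2%), while the share of all tested genes ran from 2.03% to 9.76%. The stricter filter tested 32 of the 33, and the share of the 33 was nearest the background without Ezh2 KO replicate 1 (9.09% against 8.67%). Over all genes edgeR called 0 in each of its settings, DESeq2 13, and DESeq2 with the block 50. Of 461 values of single genes under alternatives, 402 had the direction given in the report and 59 the other, and 13 of 33 genes never changed direction; the cause was not tested. Log2 fold changes of the other direction, or of 0, were Mdm2 0.00 with DESeq2 size factors, Mdm2 -0.01 with DESeq2, Mdm2 -0.03, Ppm1d -0.01 and Apaf1 -0.01 without a filter and Zmat3 0.00 with the stricter one. With both ends of the first component removed, an alternative chosen after seeing the data, they were Mdm2 -0.03, Ppm1d -0.09, Cdkn1a -0.04, Bbc3 0.57, Fas -0.03, Apaf1 -0.15, Pidd1 0.56, Trp53inp1 -0.17, Phlda3 0.37, Zmat3 0.18, Sesn2 0.53, Ddit4 0.25, Rrm2b -0.08, Xpc 0.28 and Polk -0.15. The median was then 0.18 over the 33 genes, 0.19 for apoptosis and 0.20 for metabolism, and 16 genes had no overlap. With 1 library left out at a time, ranges that crossed or reached 0 were Mdm2 -0.04 to 0.02, Bbc3 -0.38 to 0.32, Fas -0.34 to 0.39, Apaf1 -0.22 to 0.25, Pidd1 -0.91 to 0.19, Phlda3 -0.25 to 0.20, Zmat3 -0.14 to 0.10, Sesn2 -1.17 to 0.06, Rrm2b -0.07 to 0.27, Xpc -0.50 to 0.10, Polk -0.07 to 0.42, Ppm1d -0.14 to 0.31, Aen -0.04 to 0.13, Trp53 -0.07 to 0.18, Sesn1 -0.02 to 0.13, Tnfrsf10b -0.32 to 0.00. The feedback median ranged from 0.02 to 0.27, the latter without Ezh2 KO replicate 1. Without Pmaip1 the sum was 106% of Ctrl.

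The pairing of replicate numbers was assumed from these data and is not stated in the labels. The replicate block changed no call among the 33 genes, with edgeR or with DESeq2. Outside them, the neuroectoderm marker Neurog1 passed in DESeq2 with the block (adjusted p = 0.0491) and not without it (0.0731). With the replicate block the other direction was seen in Ppm1d -0.05 and Zmat3 0.01, with the GC offset as well in Mdm2 -0.06, Ppm1d -0.06, Bax 0.06, Bbc3 0.20 and Phlda3 0.20, and with DESeq2 and the block in Mdm2 -0.01 and Ppm1d -0.06. With 3 libraries a group, edgeR missed most simulated differences of log2 1.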
